A study of Mus musculus with 24 samples.

Results

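Collagens are the trimeric proteins that give extracellular matrix its strength, and their mouse genes carry symbols made of Col, a number, a and a number. All genes with such a symbol on the array were taken as the collagen genes here, 43 of the 20612 genes that the array's transcript accessions named. Their RNA was measured in 24 mouse samples that fall into 12 groups of 2. Epiblast stem cell (EpiSC) lines are cultures derived from the epiblast of implanted embryos. The EpiSC lines Wt1 and 129C1 had been derived by the original method, and 129Ba1, 129Ba2 and BNa17 in the presence of a Wnt inhibitor. Line 129C1 was also profiled under IWP2, an inhibitor of Porcupine that blocks Wnt secretion. The mouse embryonic stem cell (mESC) lines were J1, R1 and J1 grown with 2i, inhibitors of Mek and Gsk3. The other 3 groups were tissue dissected by hand from embryos: epiblast of embryonic day 5.5 (E5.5), epiblast of E6.5, and the ectoderm of the E7.5 embryo proper. Every line was grown on feeder cells and taken off them before RNA extraction, so no line was profiled without feeder culture. The labels give no strain or genotype and do not say whether the 2 samples of a group came from separate cultures or litters. In comparisons of lines, p-values measure the spread between line means, joined by that between embryo samples where embryo tissue was compared. For treatments and embryo stages they measure the spread between samples of a group, pooled over the 12 groups. The spread between samples of a group may be technical.

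Fibrillar collagens (types I, II, III, V, XI and others) assemble into the rope-like fibrils of connective tissue and are made in quantity by fibroblasts, osteoblasts and chondrocytes. Type IV collagens form the sheet-like network of basement membranes, the thin matrix on which the epiblast rests and which endoderm and trophoblast cells also lay down. Other families decorate fibrils (FACIT collagens), form beaded filaments (type VI), short-chain hexagonal networks (types VIII and X), basement membrane proteoglycans (the multiplexins XV and XVIII) or span the cell membrane. Fibroblasts, the usual feeder cells, are a rich source of types I, III, V and VI.

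Each array's signals were put on a log2 scale and set against that array's 75th percentile, so a level of 0 equals the 75th percentile. A gene was called detected in a group when its probe stood well above background on both arrays, by the scanner software's own flag. Levels of different genes come from different probes and are not compared with each other. A difference was called when limma's moderated test gave an adjusted p under 0.05 over all genes tested and the difference was at least 2-fold. Where no array of 1 side was well above background and a bound could be set, the fold of a called gene is given as "at least" so many fold. The bound was set against the lowest signal detected on each of those arrays, or the gene's own signal there where that was higher. Where neither side was, or no bound above 1-fold could be set, a call is named without a size. Medians over genes use fitted differences, and beside them stand medians with such genes at their bound, or at 0 where there is none.

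Of the 43 collagen genes, 34 were detected in at least 1 group and 12 were well above background on all 24 arrays. Detected were 9 of 11 fibrillar genes, 5 of 6 type IV genes, 1 of 2 multiplexins, 3 of 3 network-forming genes, 7 of 8 FACIT genes, 5 of 6 type VI genes, 2 of 4 transmembrane genes and 2 of 3 others. Col4a3, Col19a1, Col17a1 and Col28a1 were not well above background on any array. Col11a2, Col24a1, Col15a1, Col6a6 and Col13a1 reached that mark on single arrays of a group at most. The gene Col12a1 had no named probe and was not analysed here.

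The arrays were of similar quality, with 36.7% to 53.2% of probes well above background and replicate correlations across probes of 0.965 to 0.989. BNa17 replicate 1 stood apart with the lowest 75th percentile, 69.3 against up to 253 elsewhere. All 5 pluripotency markers were detected in all 12 groups. All 8 visceral endoderm markers were detected in E5.5 and E6.5 epiblast, against 2 of 8 in E7.5 ectoderm, so the tissue labelled epiblast also carried RNA of these endoderm genes. Their mean log2 level was 3.19 on E5.5 replicate 2 against -0.50 on replicate 1. In such bulk RNA, fewer cells of a type and less RNA per cell cannot be told apart.

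**Figure D1:**
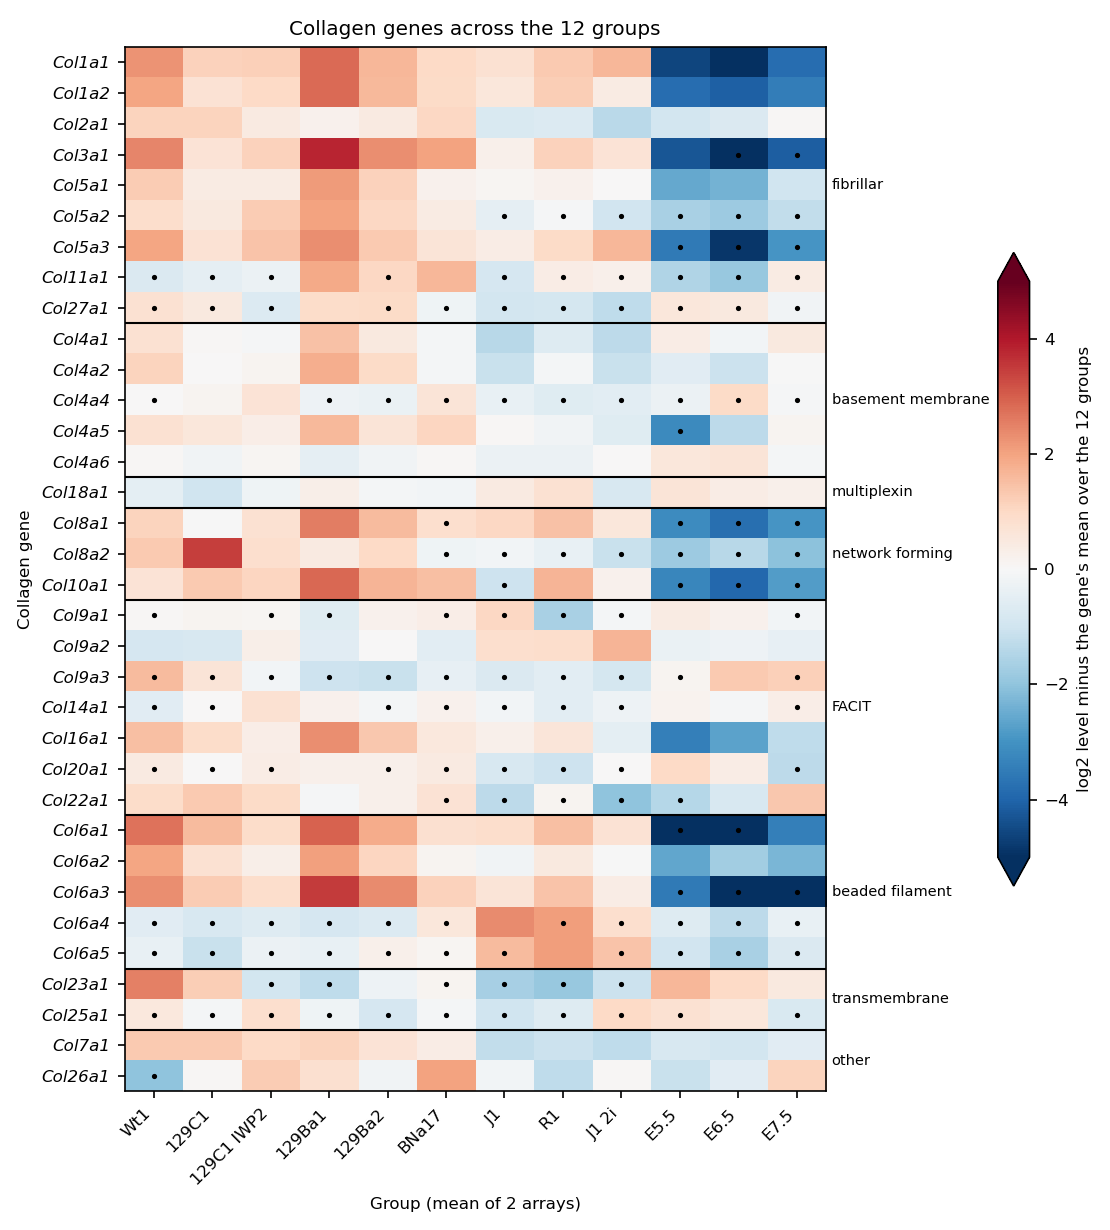
Heat map of the 34 detected collagen genes (rows, grouped by class) in the 12 groups (columns), coloured by the mean log2 level of 2 arrays minus the gene's mean over the 12 groups, with colours saturating at 5 and -5. Dots mark groups in which fewer than 2 arrays were well above background. The 3 embryo columns at the right are blue for most fibrillar and type VI genes, and the Col4a1, Col4a6 and Col18a1 rows vary little by comparison.

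The clearest pattern was between cultured lines and embryo tissue. For 11 of the 34 detected collagen genes, all 18 line arrays lay above all 6 embryo arrays, where 4.45% of all genes tested did so. These were the fibrillar genes Col1a1, Col1a2, Col3a1, Col5a1 and Col5a3, the type VI genes Col6a1, Col6a2 and Col6a3, the network-forming genes Col8a1 and Col10a1, and the FACIT gene Col16a1. No type IV gene was among them. Of the 11, Col5a3, Col6a3, Col8a1 and Col10a1 were not well above background on any embryo array. They passed the detection filter only through lines, where they are high, and could hardly have shown another order. Col3a1 and Col6a1 were well above background on 3 of 6 embryo arrays, so the count is a description. For none of the 34 genes did all line arrays lie below all embryo arrays, against 2.07% of all genes.

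Col1a1 and Col1a2 encode the 2 chains of type I collagen, the main fibril of skin and bone. On the 10 arrays of untreated EpiSC lines, Col1a1 ranged from 3.85 to 5.97 with a median of 4.65, and on the 4 untreated mESC arrays from 3.33 to 4.29. On the embryo arrays it was -2.56 and -0.78 at E5.5, -2.45 and -2.46 at E6.5, and -0.18 and -1.57 at E7.5. The line and embryo ranges were far apart, and 129Ba1 and Wt1 were the highest lines. Col1a2 ran from 4.65 to 7.13 in the EpiSC lines, with a median of 5.64, and from 4.36 to 5.37 in the mESC lines. In the embryo it stayed between -0.01 and 0.68, detected on all 6 arrays.

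Col3a1, the type III chain of stretchable tissues such as vessel walls, ranged from 2.13 to 5.62 in the EpiSC lines and from 1.59 to 2.91 in the mESC lines. Its embryo levels were -3.06 and -2.14 at E5.5, -4.07 and -4.75 at E6.5, and -1.75 and -3.19 at E7.5. Neither E6.5 array and 1 of the E7.5 arrays was well above background. Col5a1, which starts type I fibrils, lay between 1.01 and 3.64 in the EpiSC lines and between -1.58 and 0.44 in the embryo, so its ranges came closer. Col6a3, a chain of the type VI filaments that surround cells, was never well above background in the embryo (-5.24 to -3.22) and reached 0.53 to 3.73 in the EpiSC lines.

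The start regions of a few of these genes are given because type I and type III genes moved together. They are the bases just before the transcript start in the RefSeq annotation of GRCm38.p6, which held 38 start regions for 35 of the 43 genes, and Col1a1 was not among them. Each was searched on both strands for CCAAT, the core of the CCAAT box. They were searched in the same way for GGGCGG, the core of the GC box, and for TATAAA, the core of the TATA box. These motifs do not overlap in the stretches printed, where matches on either strand are in capitals. Col1a2 lies at chr6:4505368-4505617 (plus strand) and Col3a1 at chr1:45311288-45311537 (plus strand), both directly upstream of the gene.
Col1a2: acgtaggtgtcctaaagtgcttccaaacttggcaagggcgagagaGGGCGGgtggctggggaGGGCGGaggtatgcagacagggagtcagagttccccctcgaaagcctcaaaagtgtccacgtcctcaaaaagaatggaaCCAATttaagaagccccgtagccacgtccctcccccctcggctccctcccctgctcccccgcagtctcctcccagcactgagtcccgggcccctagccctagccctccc
Col3a1: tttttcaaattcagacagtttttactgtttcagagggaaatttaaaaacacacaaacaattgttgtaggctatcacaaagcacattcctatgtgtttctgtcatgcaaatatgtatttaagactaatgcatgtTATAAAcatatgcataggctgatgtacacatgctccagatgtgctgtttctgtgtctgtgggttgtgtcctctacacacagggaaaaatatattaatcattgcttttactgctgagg
The Col1a2 window held 1 CCAAT and 2 GGGCGG matches, and the Col3a1 window 1 TATAAA match and neither of the other 2 motifs. Over all 32851 RefSeq start regions of 250 bases, 33.9% held CCAAT, 32.7% GGGCGG and 12.4% TATAAA. Among the 38 collagen regions the shares were 34.2%, 57.9% and 13.2%. These matches describe letters in a window only.

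**Figure D2:**
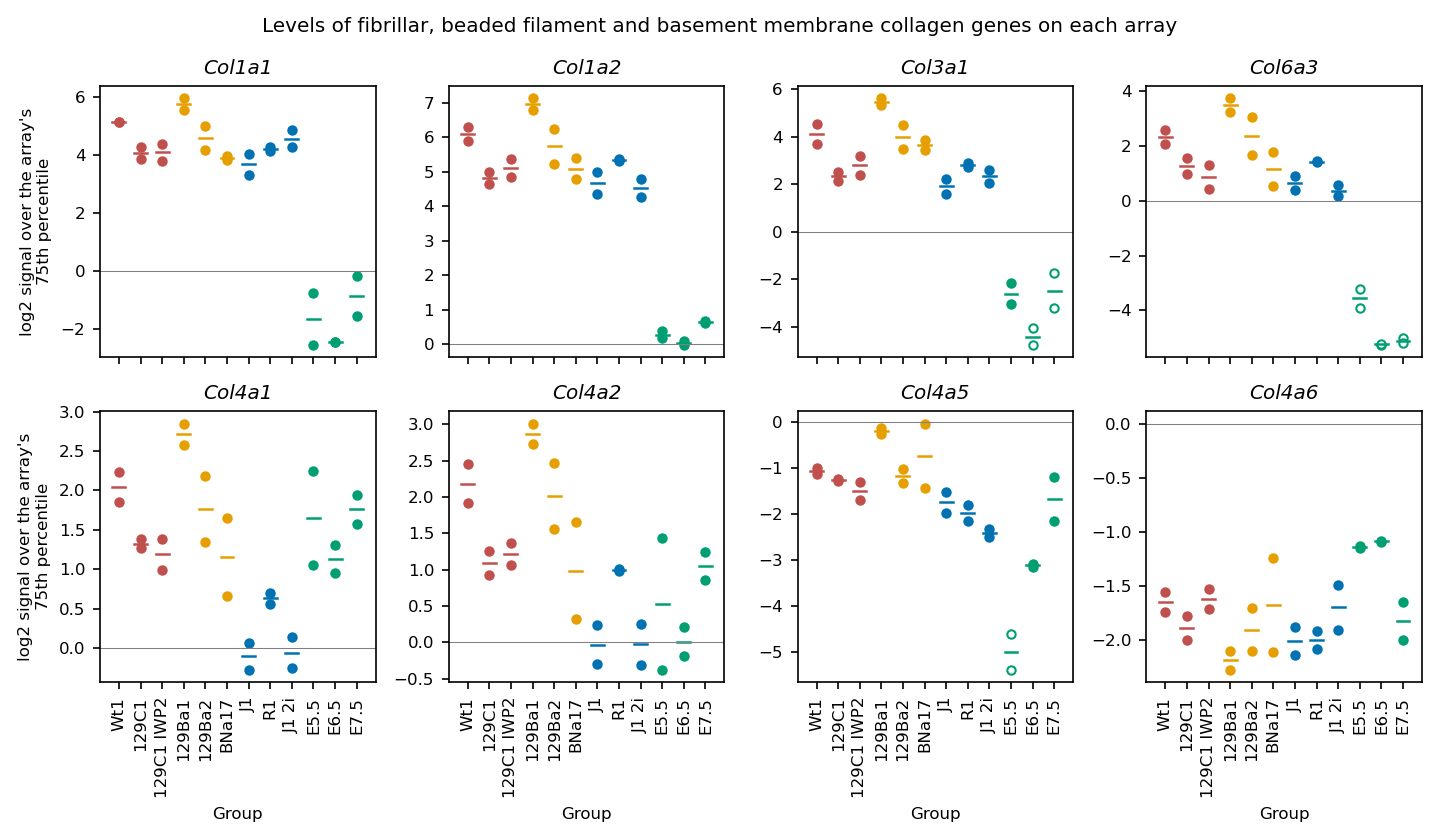
Log2 level over the array's 75th percentile (vertical axis) of 8 collagen genes on each of the 24 arrays, by group (horizontal axis). Points are arrays, bars are group means, and open points belong to groups with fewer than 2 arrays well above background. In the top row (Col1a1, Col1a2, Col3a1, Col6a3) all line arrays lie above all embryo arrays, while in the bottom row (Col4a1, Col4a2, Col4a5, Col4a6) the ranges overlap.

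The 5 untreated EpiSC lines, each taken as the mean of its 2 arrays, were then set against each embryo stage. Of the 43 collagen genes, 32 could be tested, of which 21 passed the detection filter in both EpiSC lines and embryo, 9 in EpiSC lines only and 2 in the embryo only. The 9 could hardly have fallen, so the counts that follow are a description. Against E5.5 epiblast 17 genes were higher and 0 lower, where 14.7% of all genes tested were called higher and 9.42% lower. In the fibrillar group 7 of 9 tested genes were higher, with a median log2 difference of 3.59. All 3 tested type VI genes and all 3 network-forming genes were higher, with medians of 5.67 and 4.35. Of 5 type IV genes 1 was higher, with a median of 0.33. The median over the 32 collagen genes was 1.90, against -0.04 over all genes. With 12 genes at their bound or at 0 it was 1.42, and the medians were 3.59 for fibrillar, 5.64 for type VI and 2.30 for network-forming genes.

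Col1a1 was higher by 6.37 ± 0.61 (log2, SE; adjusted p = 9.61e-05 by limma), which is 82.5-fold. Col1a2 was 43.7-fold higher (5.45 ± 0.48, adjusted p = 5.83e-05) and Col3a1 91.5-fold (6.52 ± 0.72, adjusted p = 0.000197). Col5a1 differed by 3.59 ± 0.45, Col16a1, a minor fibril-associated chain, by 4.74 ± 0.39, and Col6a2 by 3.79 ± 0.49. Genes with no E5.5 array well above background had only bounds. Col6a1 was at least 111-fold higher, Col6a3 at least 49.8-fold, Col5a3 at least 13.1-fold, Col10a1 at least 7.94-fold, Col8a1 at least 4.92-fold and Col5a2, another type V chain, at least 3.3-fold. Col8a2 (at least 2.90-fold) and Col22a1 (at least 2.31-fold) were also called. Col8a2 lost its call without E5.5 replicate 2 (adjusted p = 0.139), and Col22a1 without E5.5 replicate 1 (adjusted p = 0.0661). Smaller differences were called for Col7a1, the anchoring fibril chain under epithelia (1.75 ± 0.27), and for the cartilage collagen Col2a1 (1.70 ± 0.27). Col11a1, a partner of type II fibrils, missed the threshold (adjusted p = 0.0603) and was not well above background on either E5.5 array.

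Against E6.5 epiblast 19 of the 32 genes were higher and 0 lower, beside 12.9% and 9.11% of all genes. The median log2 difference was 1.84, or 1.67 with genes at their bound, against -0.10 over all genes. Col1a1 differed by 7.15 ± 0.61, Col1a2 by 5.70 ± 0.48 and Col5a1 by 3.39 ± 0.45. Col3a1 was at least 252-fold higher and Col6a3 at least 80.5-fold. Col6a1 (7.15 ± 0.59), Col6a2 (2.95 ± 0.49), Col16a1 (3.99 ± 0.39), Col7a1 (1.86 ± 0.27), Col2a1 (1.52 ± 0.27) and Col22a1 (1.41 ± 0.43) were higher as well. Col5a3, Col8a1, Col10a1, Col5a2 and Col8a2 were at least 19.8-fold, 7.44-fold, 12-fold, 5.02-fold and 4.39-fold higher. The 2 genes called here and not at E5.5 were Col11a1 (at least 1.97-fold, adjusted p = 0.0354) and Col4a2 (1.82 ± 0.58, adjusted p = 0.0342). Neither change of call was itself tested as a difference between stages, and both genes were near the threshold. Leaving out E6.5 replicate 1 or 2 took the count to 15 or 16 and ended the calls of Col11a1, Col4a2, Col8a2 and Col22a1. Without those replicates their adjusted p-values were 0.113 and 0.206, 0.196 and 0.119, 0.139 and 0.154, and 0.161 and 0.123. Col11a1 also lost its call without Wt1 replicate 2 (0.0616), 129C1 replicate 1 (0.0503) or the line 129Ba1, 129Ba2 or BNa17 (0.0572, 0.0624 and 0.0608). Col4a2 did so without BNa17 replicate 2 (0.0821) or the line Wt1 or 129Ba2 (0.0533 and 0.0597), Col22a1 without 129Ba1 replicate 2 (0.0696) and Col8a2 without BNa17 replicate 1 (0.0512).

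Against E7.5 embryonic ectoderm 15 of the 32 genes were higher and 0 lower, beside 11.4% and 6.20% of all genes. The median was 0.78, or 0.75 with genes at their bound, against -0.0005 over all genes. Of 9 fibrillar genes 6 were called, led by Col3a1 (6.39 ± 0.72), Col1a1 (5.58 ± 0.61) and Col1a2 (5.09 ± 0.48), and none of the 5 type IV genes. Col5a1 differed by 2.04 ± 0.45 (adjusted p = 0.00954), Col6a1 by 5.39 ± 0.59, Col6a2 by 3.50 ± 0.49, Col16a1 by 2.61 ± 0.39 and Col7a1 by 1.51 ± 0.27. Bounds were at least 51.9-fold for Col6a3, 10-fold for Col5a3, 7.75-fold for Col10a1, 4.80-fold for Col8a1, 3.24-fold for Col5a2 and 2.83-fold for Col8a2. Col20a1, a FACIT chain, was called here (at least 1.14-fold) and not at the other 2 stages, a difference that was not tested. Col5a1 and Col8a2 lost their calls without either E7.5 array (adjusted p = 0.0554 and 0.0815, and 0.0948 and 0.0901). Col5a2 lost its call without E7.5 replicate 1 (0.0708) and Col20a1 without E7.5 replicate 2 (0.0522). Col2a1 (0.73 ± 0.27), Col11a1 (0.26 ± 0.82) and Col4a5 (0.78 ± 0.36) were not called.

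The 3 stage comparisons share the same EpiSC lines. No slide held both EpiSC lines and embryo tissue, so for them slide and group cannot be told apart. The mESC line J1 shared a slide with E7.5 ectoderm. Within that slide Col1a1 was 3.33 and 4.05 in J1 against -0.18 and -1.57, and Col6a3 0.37 and 0.91 against -4.99 and -5.20.

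**Figure D3:**
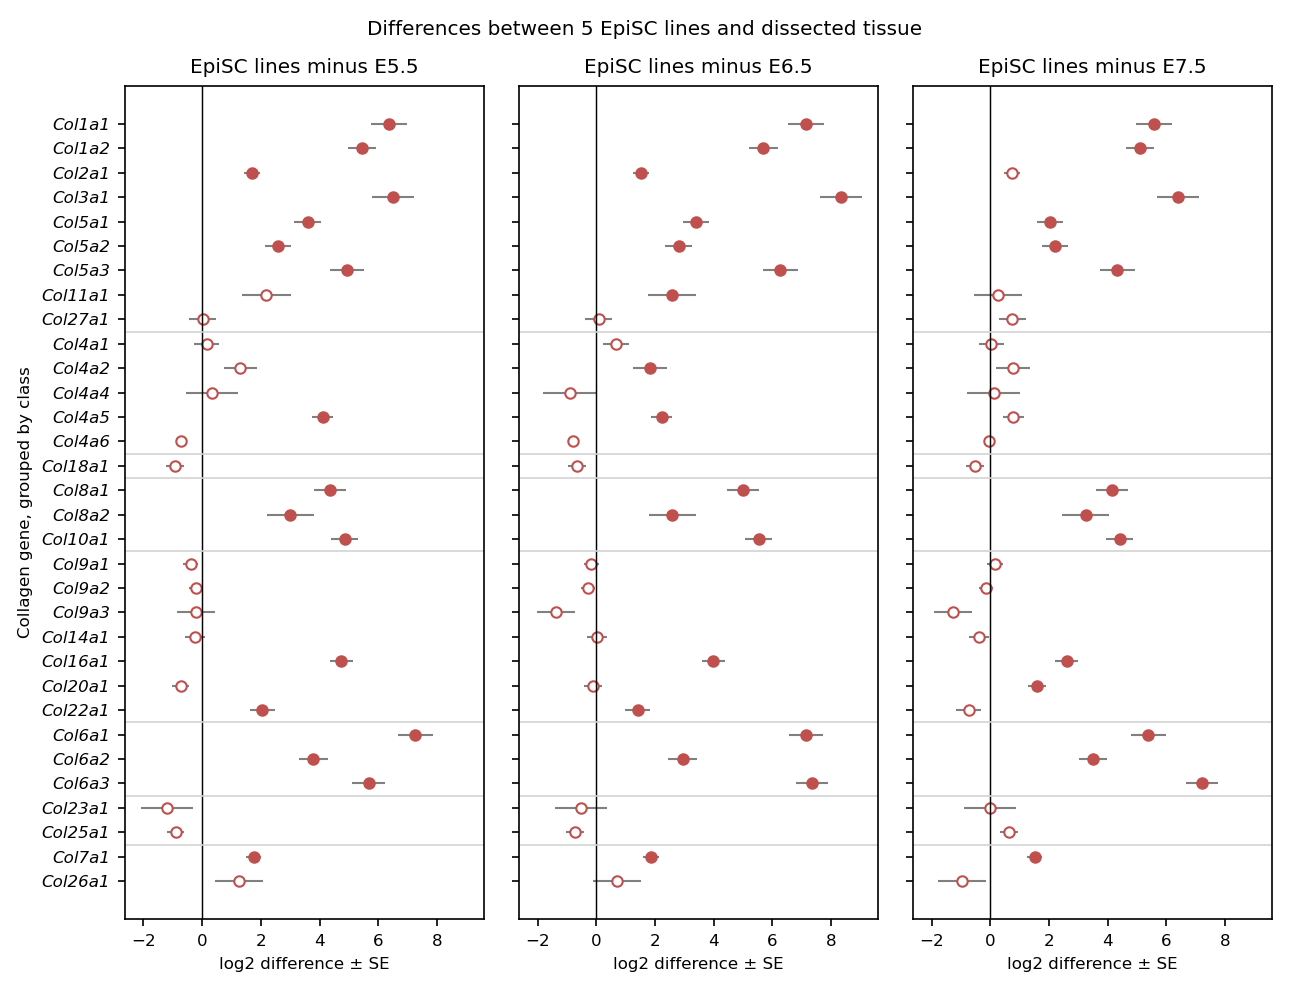
Log2 difference with its standard error (horizontal axis) between the 5 untreated EpiSC lines and E5.5, E6.5 or E7.5 tissue for the 32 tested collagen genes (vertical axis, grouped by class). Filled points were called at adjusted p under 0.05 and at least 2-fold. Points are fitted differences, also for genes not well above background in the embryo, whose bounds are smaller. Filled points gather in the fibrillar, network-forming and type VI blocks, and Col1a1, Col1a2 and Col3a1 lie beyond 5 in all 3 panels.

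Fibroblast markers moved with these collagens. The 16 markers (among them Thy1, Dcn, Lum, Postn, Fap and S100a4) were all detected in 7 of the 9 line groups, with 15 detected in BNa17 and 14 in J1 with 2i. In the embryo 4 were detected at E5.5, 9 at E6.5 and 9 at E7.5. Their mean log2 level ranged from 0.86 to 3.09 on EpiSC arrays and from 0.84 to 1.46 on untreated mESC arrays, against -3.70 to -2.03 on embryo arrays. For 11 of the 16, all line arrays lay above all embryo arrays. All 16 were called higher in EpiSC lines than at E5.5, 14 than at E6.5 and 11 than at E7.5. Visceral endoderm markers were lower in EpiSC lines for 7 of 8 against E5.5, 6 of 8 against E6.5 and 0 of 8 against E7.5. The labels state that feeders had been separated from the lines. The part of feeder or other fibroblast RNA in the collagen differences was not tested.

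Among the lines themselves, 129Ba1 had the highest mean fibroblast marker level (3.09 and 2.83 on its 2 arrays) and the highest Col1a1, Col1a2, Col3a1, Col5a1, Col6a3, Col4a1 and Col4a2. J1 with 2i had the lowest marker level (-0.12 and 0.34). The 2 arrays of a line did not always follow the markers. On the arrays of 129Ba2 the marker mean was 2.36 and 1.37, Col1a2 was 6.25 and 5.22, Col6a3 was 3.04 and 1.66, and Col4a1 was 2.18 and 1.35, all higher on the first. On the arrays of BNa17 the marker mean was 1.30 and 1.25, while Col1a2 was 4.78 and 5.39, Col6a3 was 0.53 and 1.77, and Col4a1 was 0.66 and 1.65, all higher on the second. BNa17 replicate 1 was the array with the lowest 75th percentile. Over the 9 line groups the correlation with the marker mean was 0.96 for Col1a2, 0.948 for Col6a3, 0.946 for Col16a1, 0.909 for Col5a1, 0.901 for Col4a2 and 0.85 for Col4a1. It was 0.732 for Col1a1, 0.55 for Col5a3, 0.395 for Col18a1, 0.427 for Col2a1, -0.445 for Col4a6 and -0.622 for Col9a2. Of the 17 collagen genes well above background on all line arrays, 9 reached 0.85. The share of all genes that reached it was not worked out, so the count shows nothing particular to collagen genes. The 9 line groups share arrays and scaling, and 129C1 and J1 each enter with and without an inhibitor.

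**Figure D4:**
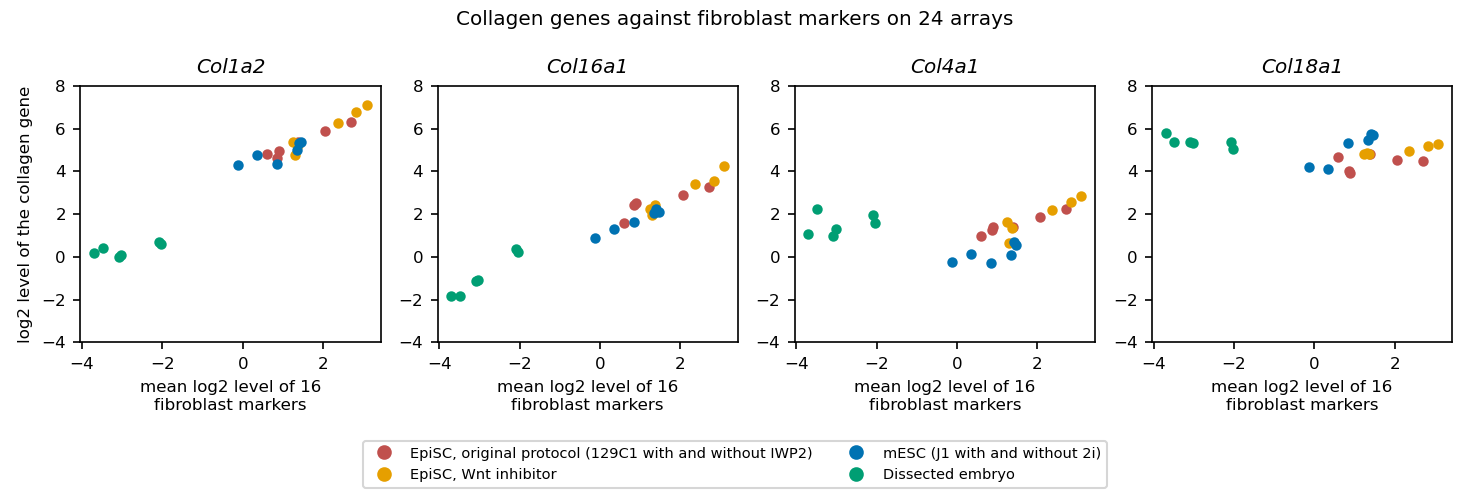
Log2 level of Col1a2, Col16a1, Col4a1 and Col18a1 (vertical axis) against the mean log2 level of 16 fibroblast markers (horizontal axis) on the 24 arrays, coloured by kind of sample. Embryo arrays lie at marker levels of -3.70 to -2.03. Col1a2 and Col16a1 follow the markers over all arrays, Col4a1 is as high in the embryo as in many lines, and Col18a1 stays between 3.93 and 5.81.

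Among the type IV genes the lines and the embryo overlapped. Col4a1 and Col4a2 encode the ubiquitous pair of chains in nearly all basement membranes. Col4a1 ranged from 0.66 to 2.85 in the EpiSC lines, and in the embryo it was 1.05 and 2.24 at E5.5, 0.95 and 1.30 at E6.5, and 1.95 and 1.58 at E7.5. All embryo arrays lay inside the EpiSC range, and the differences from the EpiSC lines were 0.15 ± 0.44 at E5.5 (adjusted p = 0.801), 0.67 ± 0.44 at E6.5 (0.251) and 0.04 ± 0.44 at E7.5 (0.954, all by limma). Col4a2 was 0.32 to 3.01 in the EpiSC lines, and -0.38 and 1.43, -0.19 and 0.21, and 1.24 and 0.86 at the 3 stages. Its differences were 1.30 ± 0.58 at E5.5 (adjusted p = 0.10, not called), 1.82 ± 0.58 at E6.5 and 0.78 ± 0.58 at E7.5 (0.336, not called). E5.5 replicate 2 was the higher array for both genes, and it was also the array with the high visceral endoderm markers. The same array was higher for the fibrillar genes Col1a1 and Col3a1 too, and lower for Col5a1 and Col18a1. The part of endoderm RNA in these levels was not tested.

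Col4a1 and Col4a2 are transcribed away from each other on chromosome 8. Their annotated starts overlap, the start of Col4a2 minus that of Col4a1 being -21 bases. A CCAAT lies 32 bases before the Col4a2 start and 53 bases inside the Col4a1 transcript, at chr8:11312761-11312790 (plus strand). It is shown in capitals because it lies close to the annotated starts of both genes. Its use by either gene was not tested.
Col4a1 and Col4a2: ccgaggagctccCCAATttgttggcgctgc
Over the 12 groups the levels of this pair correlated at 0.831, and over the 9 line groups at 0.981. The chain pair Col1a1 and Col1a2, on different chromosomes, correlated at 0.987 over 12 groups and 0.868 over the lines. Col6a1 and Col6a2, neighbours on chromosome 10, correlated at 0.950 and 0.984. Col3a1 and Col5a2, neighbours on chromosome 1, correlated at 0.886 and 0.795. The groups share arrays and the line-to-embryo gap, so these are descriptions.

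Col4a5 and Col4a6 encode chains of the minor type IV networks of kidney, skin and smooth muscle, and they too lie head to head, on chromosome X with starts 1343 bases apart. Col4a5 was not well above background at E5.5 (-5.39 and -4.60), stood at -3.09 and -3.15 at E6.5, and reached -1.19 and -2.15 at E7.5. In the EpiSC lines it ranged from -1.70 with IWP2 up to -0.04, and in the mESC groups from -2.50 to -1.52. It was at least 6.65-fold higher in the untreated EpiSC lines than at E5.5 (adjusted p = 5.55e-05) and 2.23 ± 0.36 higher on the log2 scale than at E6.5 (adjusted p = 0.00168). The E5.5 arrays were thus the only ones without a detected Col4a5 signal.

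Col4a6 was measured by 2 probes that disagreed. The brighter probe, used for all counts here, varied only from -2.28 to -1.08 over the 24 arrays. The other probe, dimmer and well above background on 15 arrays, gave -4.60 and -5.41 at E5.5, -2.72 and -2.74 at E6.5, and -0.70 and -1.34 at E7.5. It gave -2.45 to -1.33 on the untreated EpiSC arrays, while on the 6 mESC arrays it ran from -5.32 to -3.41 and was never well above background. Over the 12 groups it correlated with Col4a5 at 0.626, where the brighter probe correlated at -0.765, and the 2 Col4a6 probes correlated at -0.19 with each other.

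By the other probe, a choice made after its values were seen, Col4a6 was at least 3.27-fold higher in EpiSC lines than at E5.5 (adjusted p = 9.21e-05 by limma) and at least 2.31-fold higher than in mESC lines (adjusted p = 0.00179). It was at least 1.86-fold higher at E6.5 than at E5.5 (adjusted p = 0.000507) and 1.71 ± 0.32 higher at E7.5 than at E6.5 (adjusted p = 0.00146). By the brighter probe the first and last of these were -0.72 ± 0.18 and -0.74 ± 0.24, and EpiSC lines differed from E6.5 by -0.78 ± 0.18 and from E7.5 by -0.04 ± 0.18, so the direction of Col4a6 depends on the probe. Both probes carry the same transcript accession in the array's annotation. For each of the pair, the part of its upstream window that lies outside its own annotated gene span is shown because the 2 genes face each other across them. Col4a5 lies at chrX:141475169-141475369 (plus strand) and Col4a6 at chrX:141474096-141474326 (minus strand), with matches to the motifs above in capitals.
Col4a5: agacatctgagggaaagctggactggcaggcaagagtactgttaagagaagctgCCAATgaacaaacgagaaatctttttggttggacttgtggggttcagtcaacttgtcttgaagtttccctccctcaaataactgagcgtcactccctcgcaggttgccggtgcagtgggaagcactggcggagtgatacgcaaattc
Col4a6: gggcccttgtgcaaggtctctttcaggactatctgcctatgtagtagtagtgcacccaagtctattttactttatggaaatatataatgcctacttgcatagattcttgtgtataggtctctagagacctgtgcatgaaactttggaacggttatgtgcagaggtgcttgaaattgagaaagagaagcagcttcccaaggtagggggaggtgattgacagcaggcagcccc
The Col4a5 stretch held 1 CCAAT, and the Col4a6 stretch none of the 3 motifs. The rest of the Col4a5 window, not printed, held 1 GGGCGG. The whole Col4a6 window also held 1, which ran across the end of the printed stretch and so is not in capitals.

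**Figure D5:**
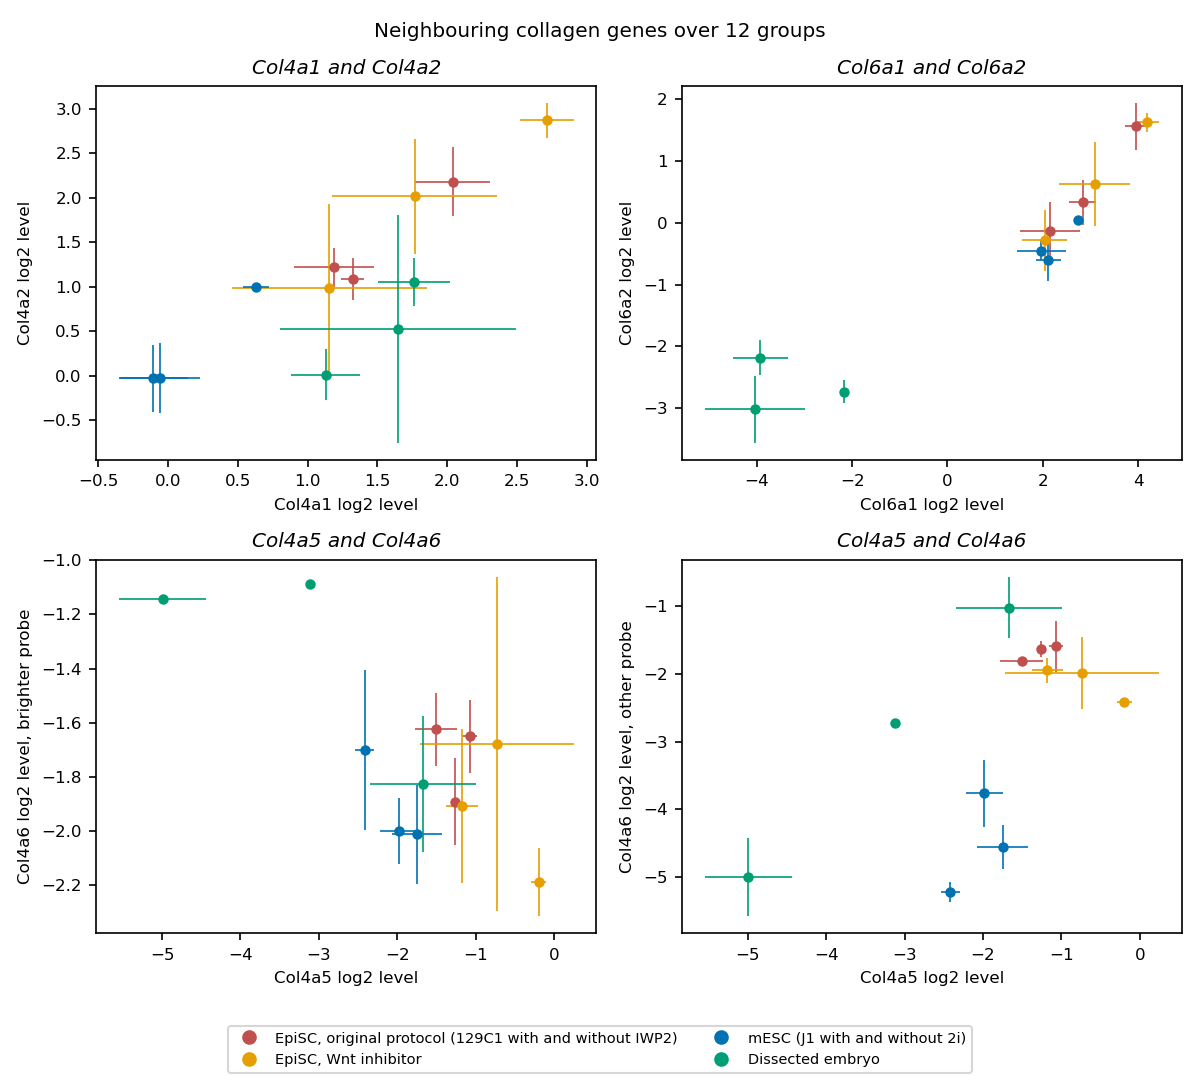
Log2 levels of neighbouring collagen genes against each other over the 12 groups, with points for the mean and bars for the SD of 2 arrays. Col4a1 with Col4a2 and Col6a1 with Col6a2 rise together, and Col4a5 is plotted against Col4a6 once by its brighter probe (r = -0.765) and once by its other probe (r = 0.626).

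The remaining type IV gene detected, Col4a4, was dim, with levels of -4.79 to -2.34 on EpiSC line arrays. Col18a1, the source of endostatin and a proteoglycan of basement membranes, was bright in every group. It ranged from 3.93 to 5.29 in the EpiSC lines, from 5.34 to 5.77 in the untreated mESC lines and from 5.06 to 5.81 in the embryo. Its differences between EpiSC lines and embryo stages, -0.91 at E5.5 (adjusted p = 0.0399, short of 2-fold), -0.65 at E6.5 and -0.52 at E7.5, were not called.

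The genes that make and hold collagen were described beside it. Of 31 tested genes for chaperones, modifying enzymes, propeptidases and crosslinkers, 18 were higher in EpiSC lines than at E5.5, 18 higher and 1 lower (Pcolce2) than at E6.5, and 15 higher than at E7.5. Among all genes tested, 14.7%, 12.9% and 11.4% were called higher in these 3 comparisons. Against E5.5, Lox, which crosslinks collagen, was at least 8.97-fold higher, its relative Loxl3 at least 10-fold, and Adamts2, which removes the N-propeptide of fibrillar procollagens, at least 14.8-fold. Bmp1, the C-propeptidase, differed by 3.79 ± 0.29 (adjusted p = 2.68e-05 by limma). Of 7 receptors tested, Ddr2 and Itga11, which bind fibrillar collagen, were at least 10.7-fold and 10.3-fold higher, and Itgb1 was higher by 1.18 ± 0.30. Of 8 genes of collagen breakdown and its inhibitors 7 were higher, led by the inhibitor Timp2 (5.53 ± 0.53), with the bone collagenase Mmp13 at least 4.85-fold, the protease Ctsk at least 18-fold and Timp1 at 4.0 ± 0.43. Of 9 basement membrane partners only Nid1, which links laminin to type IV collagen, was higher (3.17 ± 0.77, adjusted p = 0.0107). Against E7.5 Nid1 was again higher (4.05 ± 0.77) and Lama1, the early laminin chain, was lower by -2.86 ± 0.57.

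The next question was how primed EpiSC lines differ from naive-type mESC lines. Between the 5 untreated EpiSC lines and J1 and R1, 8 of 32 tested collagen genes were called, which is the same share as the 25.0% of all genes. In EpiSC lines 5 were higher and 3 lower, with a median log2 difference of 0.90, or 0.74 with genes at their bound, against -0.01 over all genes. Col7a1 had the lowest adjusted p of the 8. It was 1.33 to 2.58 on the EpiSC arrays and -0.30 to 0.19 on the mESC arrays, without overlap, 4.29-fold higher (2.10 ± 0.30, adjusted p = 0.00212). Col2a1, which is also expressed in early notochord and neural tissue, was 2.10 to 3.23 against 0.98 to 1.33, a difference of 1.51 ± 0.29 (adjusted p = 0.00763). Its embryo levels were 1.07 and 0.92 at E5.5, 1.19 and 1.16 at E6.5, and 2.16 and 1.77 at E7.5.

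Col4a1 was 1.54 ± 0.44 higher in the EpiSC lines (adjusted p = 0.0301), with mESC arrays at -0.28, 0.07, 0.70 and 0.56. The call was lost without BNa17 replicate 2 (adjusted p = 0.0767) or the line 129Ba2 (0.0571). Col4a2 (1.35 ± 0.55, adjusted p = 0.0943) was not called, nor was Col4a5 (0.98 ± 0.31), whose adjusted p of 0.0421 passed while its fold did not, nor Col4a6 (0.14 ± 0.20). Col20a1 and Col27a1 (adjusted p = 0.00318 and 0.0123) also count among the 8, but each was well above background on 4 of 10 EpiSC arrays and on none of the 4 mESC arrays. They entered the test only through EpiSC lines and no bound above 1-fold could be set, so no size is given, and 6 calls have a measured size or a bound. Both lost their calls with normexp background correction (adjusted p = 0.539 and 0.159).

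Lower in the EpiSC lines were Col9a2, a FACIT chain on cartilage fibrils, and the type VI chains Col6a4 and Col6a5. Col9a2 was -1.11 to -0.01 on EpiSC arrays and 0.47 to 0.92 on mESC arrays, lower by -1.39 ± 0.26 (adjusted p = 0.00635). Col6a4 was at least 1.79-fold lower and Col6a5 at least 1.95-fold lower, neither being well above background on any of the 10 EpiSC arrays. They entered the test only through mESC lines, where they are high. Both lost their calls with normexp background correction (adjusted p = 0.0634 and 0.114 by limma). Both were also below background in the embryo. They are neighbours of each other on chromosome 9, apart from Col6a1 and Col6a2 on chromosome 10. The large fibrillar genes were not called, with Col1a1 at 0.75 ± 0.51, Col1a2 at 0.73 ± 0.56, Col3a1 at 1.54 ± 0.73, Col5a1 at 0.87 ± 0.49, and Col5a2 at 1.24 ± 0.43 (well above background on 1 of 4 mESC arrays). Col11a1 was not called either and was not well above background in mESC lines. The 16 fibroblast markers had a median difference of 0.61 and none was called, while 2 of 6 tested visceral endoderm and 2 of 5 tested trophoblast markers were lower. Their part in the collagen differences was not tested.

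Of the partner genes, 7 of 31 maturation genes were higher and 1 lower, a share near the 25.0% of all genes called in either direction. Pxdn, which forms the sulfilimine crosslinks of type IV collagen, was higher by 2.70 ± 0.17 (adjusted p = 7.25e-05 by limma), P4ha1, a proline hydroxylase subunit, by 2.24 ± 0.32 and Loxl2 by 1.64 ± 0.28, while Pcolce2 was at -2.55 ± 0.44. Of 7 receptors 3 (Mrc2, Lair1, Ddr1) and 1 of 8 degradation genes (Mmp14, 1.41 ± 0.42) were higher. Among basement membrane partners 3 of 9 were lower, Lama1 by -3.54 ± 0.56, Nid2 by -1.62 ± 0.16 and Dag1 by -1.06 ± 0.19, opposite in sign to Col4a1. No slide held both EpiSC and mESC lines, so slide and kind of line cannot be told apart. Without the line J1 or R1 only 1 mESC line was left, and fewer genes were called, among collagen genes and over all genes. Col4a1 (0.219 and 0.0757), Col2a1 (0.0677 and 0.0582), Col27a1 (0.0886 and 0.0824) and Col9a2 (0.0564 and 0.0572) then missed the adjusted p.

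Embryo stages were compared next. The E5.5 and E6.5 arrays shared 1 slide. From E5.5 to E6.5, 3 of 34 collagen genes were called, beside 4.87% of all genes. Col4a5 was at least 1.42-fold higher at E6.5 (adjusted p = 0.00745). Col3a1 was at least 2.75-fold lower (adjusted p = 0.0344). The third call, Col6a3 (adjusted p = 0.0358), lies between signals that were not well above background on any array of either stage, so it is no measured change and 2 calls remain without it. Col4a1 (-0.52 ± 0.38), Col4a2 (-0.52 ± 0.51), Col1a1 (-0.78 ± 0.51), Col1a2 (-0.25 ± 0.33), Col5a1 (0.20 ± 0.36), Col4a6 (0.06 ± 0.24) and Col2a1 (0.18 ± 0.18) did not pass the test. Col5a2 and Col11a1 were not well above background at either stage and were not called.

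Calls in this step rested on single arrays. Without E5.5 replicate 1 Col4a5 missed the threshold (adjusted p = 0.0647), as it did without E6.5 replicate 1 (0.0573). Col3a1 and Col6a3 did so without E5.5 replicate 2 (0.244 and 0.224), E6.5 replicate 1 (0.0729 and 0.160) or E6.5 replicate 2 (0.237 and 0.149), and the total fell to as few as 0 without E6.5 replicate 1. Among partners, Fkbp14 (1.53 ± 0.22), Bmp1 (1.30 ± 0.20) and Fkbp10 (1.21 ± 0.17) were higher at E6.5, and Loxl1 was lower (-1.2 ± 0.35). Of the fibroblast markers 3 were higher (Cdh11, Pdgfra, Pdgfrb) and Dcn lower, and 7 of 7 tested primitive streak and 2 of 6 definitive endoderm markers were higher. Their part in the collagen differences was not tested.

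From E6.5 epiblast to E7.5 embryonic ectoderm 11 of 34 collagen genes were higher and 2 lower, beside 6.31% and 8.57% of all genes. The median log2 difference was 0.62, against -0.07 over all genes, and 0.0 with 15 genes at their bound or at 0. Col5a3 and the network-forming Col10a1 (adjusted p = 0.020 and 0.0159) were not well above background on any array of either stage. They entered the test through line groups and are no measured change, which leaves 9 higher genes. Of 9 tested fibrillar genes 5 were called higher, or 4 without Col5a3. Col1a1 was 2.97-fold higher (1.57 ± 0.51, adjusted p = 0.0332), Col5a1 2.55-fold (1.35 ± 0.36, adjusted p = 0.0128), Col3a1 at least 3.01-fold and Col11a1 at least 1.64-fold. Col16a1 was 2.62-fold higher, from -1.12 and -1.06 to 0.37 and 0.23, and Col6a1 3.40-fold.

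Col22a1, a collagen of tissue junctions, was 4.40-fold higher at E7.5, from -3.91 and -3.74 to -1.80 and -1.58. Col26a1 was 3.20-fold higher, from -1.69 and -1.35 to 0.12 and 0.19 (adjusted p = 0.00108). Col4a5 was 2.73-fold higher (1.45 ± 0.39, adjusted p = 0.0126). Col20a1 was at least 1.23-fold lower and Col25a1, a transmembrane collagen of neurons, at least 1.21-fold lower. Col2a1 rose by 0.79 ± 0.18 (adjusted p = 0.00463), short of 2-fold. Col4a1 (0.63 ± 0.38), Col4a2 (1.04 ± 0.51), and Col1a2 (0.61 ± 0.33) did not pass, nor did Col5a2, which was not well above background at either stage. Lama1 (2.00 ± 0.39) and Dag1 (1.52 ± 0.30), both of the laminin side of the basement membrane, were higher too. So were Timp2 (2.63 ± 0.39), Mmp2 (1.25 ± 0.28) and 5 of 31 maturation genes, beside 6.31% of all genes. Among the 5, Adamts2 was at 1.91 ± 0.53, Loxl3 at least 2.09-fold higher, Loxl2 at 1.51 ± 0.36 and Fkbp14 at 1.16 ± 0.22. Itga11 was called lower from signals not well above background at either stage, which is no measured change.

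The fibroblast marker list moved with the same step, with 7 of 16 higher and 1 lower, as did the visceral endoderm list, with 8 of 8 lower, the definitive endoderm list, with 6 of 6 lower, and the streak list, with 5 of 7 lower and 1 higher. Their part in the collagen differences was not tested, and each stage was on a slide the other was not, so slide and stage cannot be told apart. The count of 13 fell to 5 without E6.5 replicate 1, 5 without E6.5 replicate 2 and 4 without E7.5 replicate 1. Col1a1 (adjusted p = 0.114, 0.126 and 0.319), Col5a1 (0.0581, 0.0699 and 0.0930), Col4a5 (0.0560, 0.0706 and 0.152), Col5a3 (0.106, 0.0672 and 0.255) and Col22a1 (0.0734, 0.0610 and 0.0535) missed the threshold in each of these. Col25a1 did so too (0.127, 0.158 and 0.133), and both it (0.131) and Col22a1 (0.0677) did so without E7.5 replicate 2. Col3a1 (0.0975 and 0.139) and Col6a1 (0.132 and 0.0704) lost their calls without E6.5 replicate 2 or E7.5 replicate 1. Col10a1 did so without E6.5 replicate 1 (0.112) or E7.5 replicate 1 (0.0977), and Col11a1 without either E6.5 array (0.0653 and 0.179) or E7.5 replicate 2 (0.327). Col16a1, Col26a1 and Col20a1 kept their calls with each of these 4 arrays left out. With normexp background correction each of them lost its call, Col20a1 at adjusted p = 0.549 by limma and Col26a1 at 0.97, short of 2-fold. Col16a1 also lost its call with the mean of its probes.

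The effect of the 2i inhibitors on collagen genes was asked in J1, where 4 of 34 genes were called, beside 13.1% of all genes. Col18a1 had the lowest adjusted p. It was 5.34 and 5.48 in untreated J1 and 4.21 and 4.12 with 2i, 2.38-fold lower (-1.25 ± 0.15, adjusted p = 5.23e-05 by limma). Its second probe gave 5.30 and 5.39 against 3.98 and 3.87. Col6a4 was at least 2.12-fold lower, Col10a1 at least 2.20-fold higher and Col25a1 at least 1.30-fold higher. Col10a1 missed the threshold without J1 replicate 2 (adjusted p = 0.0623) or J1 with 2i replicate 2 (0.122), and Col25a1 without J1 with 2i replicate 1 (0.0716). Col6a4, Col10a1 and Col25a1 all lost their calls with normexp background correction. Col10a1 and Col25a1 also lost them with quantile normalization, and Col6a4 and Col25a1 with the mean of their probes.

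The type IV genes did not pass under 2i, with Col4a1 at 0.05 ± 0.38, Col4a2 at 0.002 ± 0.51, Col4a5 at -0.67 ± 0.39 and Col4a6 at 0.31 ± 0.24. Nor did Col1a1 (0.89 ± 0.51), Col1a2 (-0.15 ± 0.33), Col3a1 (0.42 ± 0.49), Col5a1 (-0.09 ± 0.36), Col5a2 or Col11a1, the last 2 being well above background on at most 1 of the 4 arrays. Col2a1 was lower by -0.57 ± 0.18 (adjusted p = 0.0289), short of 2-fold. Of 16 fibroblast markers 5 were lower (Cdh11, Dcn, Pdgfra, S100a4, Tagln). The 9 tested fibrillar genes had a median log2 difference of -0.09, or 0.0 with genes at their bound or at 0, and none was called. Also lower were 3 of 6 definitive endoderm markers (Cer1, Foxa2, Gata6), 3 of 7 streak markers and 4 of 9 parietal endoderm markers. The part of such cells in the collagen differences was not tested. Lamb1 (-1.69 ± 0.23), Dag1 (-1.0 ± 0.30), Timp2 (-2.15 ± 0.39), Timp3 (-1.85 ± 0.34), Mmp2 (-1.5 ± 0.28), Mrc2 (-1.03 ± 0.25) and Itga1 (at least 2.08-fold) were lower. The 31 maturation genes split into 3 higher and 3 lower, beside 13.1% of all genes called in either direction. P3h4 was at -1.92 ± 0.24, Fkbp10 at -1.52 ± 0.17, Pxdn at -1.41 ± 0.16 and P3h2 at least 1.32-fold higher. The 2i arrays had a slide of their own, which cannot be told apart from the inhibitors.

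IWP2 treatment of 129C1 asks what blocking Wnt secretion does to an established line. Called were 3 of 34 collagen genes, beside 3.87% of all genes. Col8a2, a chain of the hexagonal network under endothelium and cornea, was 0.20 and 0.16 in untreated 129C1 and -2.37 and -2.51 with IWP2, 6.13-fold lower (-2.62 ± 0.42, adjusted p = 0.00124 by limma). In the other EpiSC lines it was -2.09 and -1.86 in Wt1, -2.64 and -3.07 in 129Ba1, -2.39 and -2.17 in 129Ba2, and not well above background in BNa17. Untreated 129C1 was thus the only group with a level above 0.

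Col26a1 was 2.34-fold higher with IWP2 (1.23 ± 0.30, adjusted p = 0.0255), at 0.17 and 0.48 against -0.51 and -1.29. Col9a2 was 2.14-fold higher (1.1 ± 0.23, adjusted p = 0.00854), at 0.32 and -0.07 against -0.87 and -1.07. Without 129C1 replicate 2 the count fell to 1 (Col26a1 adjusted p = 0.287, Col9a2 0.0867). Without IWP2 replicate 1 these 2 genes gave 0.0519 and 0.0787, and without IWP2 replicate 2 Col26a1 gave 0.193. The fibrillar and type IV genes did not pass the call, with Col1a1 at 0.03 ± 0.51, Col1a2 at 0.29 ± 0.33, Col3a1 at 0.46 ± 0.49, Col5a1 at 0.01 ± 0.36, Col5a2 at 0.80 ± 0.48, Col4a1 at -0.13 ± 0.38, Col4a2 at 0.13 ± 0.51, Col4a5 at -0.24 ± 0.39 and Col4a6 at 0.27 ± 0.24. Col11a1 was not well above background on any of the 4 arrays, and Col2a1 differed by -0.67 ± 0.18 (adjusted p = 0.0401), short of 2-fold. Of the partner genes only Mmp13 was called, at least 4.75-fold higher. With IWP2 all 6 definitive endoderm markers were lower (median log2 difference -6.44), as were 4 of 7 tested streak markers, and the fibroblast marker Dcn was higher. Their part in the collagen differences was not tested. No slide held both treated and untreated 129C1, so IWP2 cannot be told apart from slide.

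The last comparison set the 3 lines derived with a Wnt inhibitor against the 2 derived by the original method. Only 1 of 30 collagen genes was called, beside 1.53% of all genes. Col11a1 was -2.34 and -1.74 in 129Ba1, -2.38 and -3.42 in 129Ba2, and -1.84 and -2.71 in BNa17, well above background on 5 of these 6 arrays. In Wt1 and 129C1 it was -5.21, -4.10, -3.94 and -4.79, on none of them well above background. The groups did not overlap, and Col11a1 was at least 2.71-fold higher with the inhibitor (adjusted p = 0.0466). It entered the test only through the inhibitor lines, where it is high. The call is at the edge of the threshold and was lost with no filter on dim probes (adjusted p = 0.0667), normexp background correction (0.306), quantile normalization (0.0503), a trended robust variance (0.0791) or slide as a random block (0.0523), and without Wt1 replicate 1 or 2 (adjusted p = 0.0769 and 0.0686), 129C1 replicate 2 (0.0855), 129Ba1 replicate 1 (0.0606), 129Ba2 replicate 1 (0.15) or BNa17 replicate 1 or 2 (0.0609 and 0.0923). It was also lost without the line Wt1 (0.11), 129Ba1 (0.113), 129Ba2 (0.0771) or BNa17 (0.183).

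The main fibrillar and type IV genes did not pass. Col3a1 differed by 1.16 ± 0.74, Col1a1 by 0.14 ± 0.62, Col1a2 by 0.47 ± 0.65, Col5a1 by 0.32 ± 0.60, Col5a2 by 0.48 ± 0.49 and Col2a1 by -0.53 ± 0.29. Col4a1 differed by 0.20 ± 0.50, Col4a2 by 0.32 ± 0.62, Col4a5 by 0.46 ± 0.32 and Col4a6 by -0.15 ± 0.23. Within the 1 slide that held 129C1 and all 3 inhibitor lines, 9 of 34 collagen genes were called, beside 1687 of all 15086 genes. In that fit arrays were the units and 129C1 was the only line of its kind. Col3a1 (2.05 ± 0.40), Col8a1 (1.70 ± 0.23), Col1a2 (1.11 ± 0.27), Col6a3 (1.07 ± 0.38) and Col18a1 (1.02 ± 0.12) were higher there than in 129C1, as was Col11a1, which was not well above background in 129C1. Col8a2 (-3.06 ± 0.34) and Col23a1 (-1.69 ± 0.53) were lower. Col9a3 was called lower too, but it was not well above background on any array of these lines, so it is no measured change. Those values compare 3 lines with 1 line, which had the lowest fibroblast marker mean of the untreated EpiSC lines (0.86 and 0.89). No gene of the maturation, receptor, basement membrane or degradation lists and no fibroblast marker was called in the comparison over lines. Lower in the inhibitor lines were all 6 definitive endoderm markers (median log2 difference -6.07), 2 of 5 tested streak, 3 of 4 trophoblast, 2 of 9 parietal endoderm and 1 of 6 visceral endoderm markers. Their part in the Col11a1 difference was not tested.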

How the data were processed

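RNA of the 24 samples had been labelled with Cy3 and hybridised to 1-colour Agilent arrays. The authors deposited each array's scanner output, whose intensity column is the processed signal of Agilent Feature Extraction 10.5.1.1 (version per the submitters' processing notes), background-subtracted and detrended per the file headers. A deposited table of the authors' log2 values, the same signals centred on each probe's median, served as an alternative. The tool behind that centring is not given in the sources used here, and the scale was found by setting it against the scanner values.

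From the intensity values, control spots (3671 of 62976) and 168 flagged probes were left out, and log2 signals were set against each array's 75th percentile. The probe with the highest mean stood for a gene. A gene entered a fit when 1 of its groups had 2 arrays well above background, and was tested with limma 3.58.1 (lmFit and eBayes, R 4.3.3), two-sided, with Benjamini-Hochberg adjustment over all genes tested. Line means were the units in comparisons between lines, with embryo arrays as units beside them. The 24 arrays as 12 groups were fitted for treatments and embryo stages, so that 2 arrays a group shared a pooled spread. The number of arrays limits the precision. The scripts were tested on simulated data.

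The members and lists were chosen with earlier results of these data known. Named in each comparison were every called member, Col4a1, Col4a2, Col4a5, Col4a6, Col1a1, Col1a2, Col3a1, Col5a1, Col5a2, Col2a1 and Col11a1, and up to 4 called genes of each partner list by size of change. Marker lists are given as counts. Alternatives were normexp background correction (on median signals, offset 50, in place of mean signals), quantile normalization, the authors' log2 values, other filters, the mean of probes, a trend in variance, slide, line and replicate blocks, and left-out arrays and lines. The other probe of Col4a6 was added after seeing the data. Replicate numbers did not pair the samples: the correlations of same-numbered deviations were 0.101, 0.011, 0.221 and 0.020.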

Additional observations from a re-analysis of the deposited data

How the results depend on the processing

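Of 83 calls of collagen genes over the 9 comparisons, 43 held under every alternative run and 40 were lost under at least 1, of which 31 were lost with normexp. The EpiSC to embryo counts stayed within 1.5 times under all alternatives (14 to 20 at E5.5, 15 to 22 at E6.5, 12 to 16 at E7.5). With normexp the other counts became 0 (Wnt inhibitor lines), 1 (IWP2), 4 (EpiSC against mESC), 1 (2i), 0 (E6.5 against E5.5) and 3 (E7.5 against E6.5). Calls over all genes fell too, in the same order from 215 to 189, 584 to 273 and 3609 to 1955. For the last 3 comparisons they fell from 1973 to 613, 734 to 299 and 2245 to 866. Quantile normalization and no filter on dim probes each gave 0 for the Wnt inhibitor lines and 1 for E6.5 against E5.5. For the Wnt inhibitor lines the stricter filter, the variance trend and the slide as a random block gave 0. The line as a random block gave 2 and the single slide 9, beside 724 and 1687 over all genes. For IWP2, no fold minimum gave 5 and the 4 arrays alone 1. The stricter filter gave 5 for EpiSC against mESC.

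Leaving out 1 array or line gave 0 to 1 calls for the Wnt inhibitor lines, 1 to 3 for IWP2, 3 to 10 for EpiSC against mESC, 3 to 6 for 2i, 0 to 2 for E6.5 against E5.5, 4 to 10 for E7.5 against E6.5, and 17 to 20, 15 to 20 and 12 to 16 for EpiSC lines against the 3 stages. Some named values changed sign. Col4a5 (E6.5 against E5.5) was -0.011 with normexp. Col25a1 (E7.5 against E6.5) was 0.15 with normexp and 0.66 as the mean of its probes. Col4a6 was 1.18 (EpiSC against E5.5) as the mean of its probes and 3.09 by its other probe, chosen after seeing the data, which also gave 1.71 for E7.5 against E6.5. The causes were not tested. The replicate block left the counts at 3 (IWP2), 4 (2i), 3 (E6.5) and 13 (E7.5). Signal over background limits the genes not well above background on a side, whose differences have only bounds or no size.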

Other observations

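Of the collagen genes 5 had a pair of arrays in 1 group that differed by more than 3 on the log2 scale, 11.6% of the 43 against 5.73% of all genes, and in each case only the higher array was well above background. Col6a6 was 0.03 on Wt1 replicate 1 and -6.06 on replicate 2, and no array of another group exceeded -3.68. Col24a1 was -0.81 on replicate 2 of 129C1 with IWP2 and -5.28 on replicate 1. Col4a4 was -0.32 on E6.5 replicate 1 and -4.63 on replicate 2. Col9a1 was -0.15 on J1 replicate 2 and -4.40 on replicate 1. Col15a1 was -0.57 on R1 replicate 1 and -4.16 on replicate 2.

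Col23a1, a transmembrane collagen, varied widely among EpiSC lines without being called in any comparison over lines. It was -0.69 and -0.21 in Wt1 and -1.52 and -1.92 in 129C1, against -5.08 and -3.35 in 129Ba1, -3.25 and -3.14 in 129Ba2 and -2.56 and -3.08 in BNa17, and it was not well above background on any mESC array.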
